A study of Mus musculus with 7 samples.

Results

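In all, 9 genes of the interleukin-1 (IL-1) family and its receptors were followed in macrophages sorted from injured mouse sciatic nerve. They were chosen by gene symbol, with earlier results of these data known. The set held the ligands Il1a, Il1b and Il18, the antagonist Il1rn, the binding protein Il18bp, and the receptor genes Il1r1, Il1rap, Il1r2 and Il1rl1. These 9 genes were taken from 23361 genes in the expression table. All 9 also passed the filter on low counts that left 12858 genes for testing.

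All groups were inbred BALB/cJ wild-type animals, with no engineered allele and no drug compared between them. The left sciatic nerve was transected and sutured at once into a conduit, and the regenerative bridge that formed in the conduit was collected 5, 14 or 28 days later. All 3 groups therefore carried the injury and the conduit, and no library from uninjured nerve was compared here. The methods of the study give meloxicam for analgesia before surgery and again a day later. The bridge was digested in warm collagenase and hyaluronidase before sorting. The part of the drug or of the digestion in the levels below was not tested. Macrophages were sorted as Lin-F4/80+CD14+CD11b+CD16/32+ cells, with granulocytes (Ly6G), eosinophils, B cells, T cells, red cells and Thy1.2+ fibroblasts gated out. RNA sequencing gave 3 libraries at day 5, 2 at day 14 and 2 at day 28. Neither the ages of the mice nor the number pooled per library is stated in the labels, which do not tie a library to a mouse. The legends of the study give a larger group size than the libraries analysed here at days 14 and 28. The p-values below measure the spread between these libraries, which may be technical.

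Total fragments per library ranged from 18027190 to 35247116. The 8 macrophage markers examined, among them Cd14, Itgam, Emr1 (F4/80) and Csf1r, were detected in every library, with summed levels of 16390 to 22460 FPKM, most of it from Lyz2 (fragments per kilobase of transcript, scaled to the mapped fragments of the library, a level per transcript length). Lists of other cells were lower. The fibroblast list summed to 27.8 to 222 FPKM, with its highest sum in day 14 replicate 1, the T cell list to 44.2 to 102, the endothelial list to 3.66 to 26.4 and the Schwann cell list to 10.7 to 19.9. The B cell, eosinophil and mast cell lists summed to at most 10.8, 5.70 and 1.71 FPKM. The dendritic cell list summed to 11.01 to 27.9 FPKM at day 5 and to 292 to 307 at day 28. Most of the day 28 sum came from Itgax (CD11c), which macrophages also express. Ccr7 of this list measured 3.73 to 8.27 FPKM at day 5, 15.1 and 7.16 at day 14, and 12.6 and 22.98 at day 28. Flt3 and Zbtb46 reached at most 0.616 and 1.62 FPKM. The part of this list in the results below was not tested. In bulk RNA from sorted cells, fewer cells that express a gene and less RNA of that gene per cell cannot be told apart.

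Interleukin-1α and interleukin-1β are the founding cytokines of the family. Both bind the signalling receptor IL-1R1, which recruits the accessory protein IL-1RAP, and then MyD88 and IRAK kinases, to activate NF-kB and MAP kinases. IL-1β and IL-18 are made as inactive precursors that caspase-1 cleaves in the inflammasome, whereas the IL-1α precursor is already active. The pathway is checked at several points. IL-1RA, the product of Il1rn, occupies IL-1R1 without signalling, IL-1R2 is a decoy that binds IL-1 but lacks the signalling domain, and IL-18BP captures IL-18 in solution. ST2, encoded by Il1rl1, is the receptor for the alarmin IL-33 and also uses IL-1RAP. In injured peripheral nerve, macrophages and Schwann cells are known sources of IL-1β during clearance of degenerating axons and myelin.

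The members sit in a few clusters of the mouse genome (GRCm38, GENCODE M21). Il1a (chr2:129299610-129309972, minus strand) and Il1b (chr2:129364570-129371139, minus strand) are neighbours with 54597 bases between them, and Il1rn lies on the same chromosome (chr2:24336853-24351494, plus strand). On chromosome 1, 3 receptor genes lie within 391337 bases, in the order Il1r2 (chr1:40074079-40125231), Il1r1 (chr1:40225080-40317257) and Il1rl1 (chr1:40429570-40465415), all on the plus strand. Il1rap (chr16:26581704-26730117, plus), Il18 (chr9:50554827-50581840, plus) and Il18bp (chr7:102014885-102018690, minus) lie alone. Exons of Il1a overlap those of Gm14023 (1.15 to 3.54 FPKM) by 222 bases, those of Il1b overlap Il1bos by 25 bases and those of Il1rap overlap Gm20319 by 552 bases, each on the opposite strand, and without a stated strand setting reads from these stretches cannot be told apart. Values are per gene, so membrane and soluble forms of a receptor, or secreted and intracellular forms of IL-1RA, were not separated.

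The neighbours Il1a and Il1b are the members called lower at both later days than at day 5, so the 250 bases before each of their starts are shown (RefSeq, GRCm38.p6, minus strand, written 5′ to 3′). They cover chr2:129309973-129310222 for Il1a and chr2:129371140-129371389 for Il1b. The Il1b window lies inside the antisense gene Il1bos but in none of its exons. Capitals mark letters that match one of 5 motifs searched on both strands.
Il1a: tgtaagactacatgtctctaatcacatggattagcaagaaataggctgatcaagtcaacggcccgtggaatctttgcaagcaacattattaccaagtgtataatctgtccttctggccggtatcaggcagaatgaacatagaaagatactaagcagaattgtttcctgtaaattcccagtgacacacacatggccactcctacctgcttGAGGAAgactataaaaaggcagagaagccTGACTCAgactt
Il1b: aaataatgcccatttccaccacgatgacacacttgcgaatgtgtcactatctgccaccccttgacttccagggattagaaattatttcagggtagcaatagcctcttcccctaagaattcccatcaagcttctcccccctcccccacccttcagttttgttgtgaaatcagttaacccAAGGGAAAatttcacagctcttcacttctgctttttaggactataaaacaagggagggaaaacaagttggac

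The Il1a window holds 1 PU.1 core (GAGGAA), which begins 41 bases before the start, and 1 AP-1 motif (TGANTCA), which begins 12 bases before it. The Il1b window holds 1 IRF motif (AANNGAAA), beginning 72 bases before the start. Neither holds the C/EBP motif (TTGCNNAA) or the NF-kB motif, which says only that those letters are not in these windows. Of 32851 RefSeq promoter windows of the same length, 23.3% hold the PU.1 core, 6.75% the AP-1 motif, 9.56% the C/EBP motif, 21.3% the IRF motif and 7.25% the NF-kB motif. The 2 windows have no motif of the search in common.

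The 9 genes differed widely in level. Il1b was the highest, ranking 50th of all genes by mean FPKM at day 5, 113th at day 14 and 93rd at day 28. Il1rn ranked 154th, 219th and 200th, and Il1a 407th, 834th and 748th on the same days. Il18 and Il18bp had means of about 5 to 21 FPKM, Il1r2 of 9.39 to 21.0 FPKM and Il1rap of 5.71 to 7.51 FPKM. Il1r1 and Il1rl1 were the lowest, with between 0.264 and 2.39 FPKM in every library. At day 5 the order was Il1b, Il1rn, Il1a, then Il18bp and Il18, whose means of 20.9 and 20.6 FPKM differed by less than their SDs, then Il1r2, Il1rap, and last Il1r1 and Il1rl1. Together the 9 genes took 0.294% to 0.309% of fragments at day 5, 0.156% and 0.239% at day 14, and 0.210% and 0.230% at day 28, of which Il1a, Il1b and Il1rn made up 0.147% to 0.299% of fragments over the 7 libraries. The summed share did not overlap between day 5 and either later day.

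**Figure D1:**
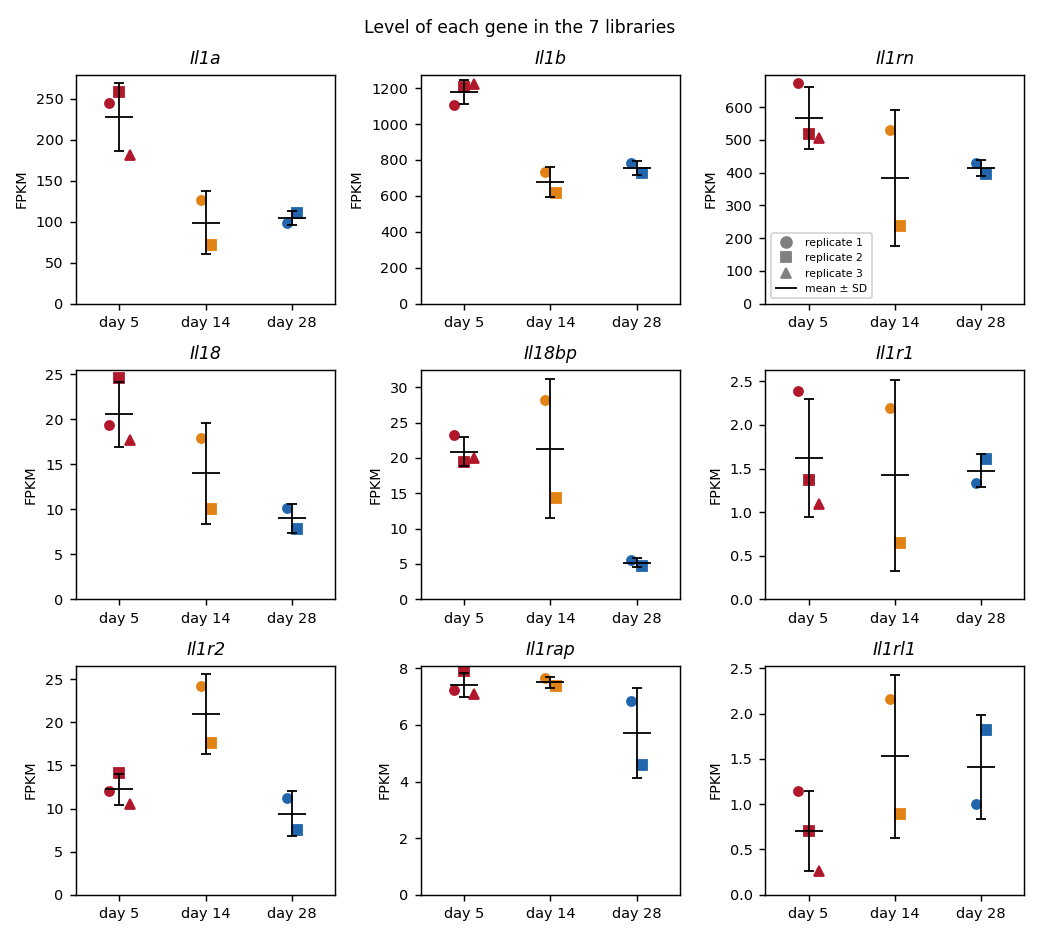
FPKM of each of the 9 genes in the 7 libraries, by day after repair, with replicates as symbols and the mean ± SD as bars (n = 3 at day 5, 2 at days 14 and 28). Il1a and Il1b lie lower in all later libraries than in any day 5 library, Il18bp lies at 4.76 and 5.62 FPKM at day 28 against 14.4 or more in every earlier library, and Il1r2 has its highest values at day 14.

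A gene was called when its p from the quasi-likelihood test of edgeR, adjusted by Benjamini-Hochberg over all genes tested, was below 0.05. Of the 9 genes, 2 were called between days 5 and 14, against 4.78% of all genes tested. Both, Il1a and Il1b, were lower at day 14, a direction taken by 1.94% of all genes. Between days 5 and 28, 4 of 9 were called, where 15.2% of all genes were called. All 4 were lower at day 28 (Il1a, Il1b, Il18 and Il18bp), against 7.51% of all genes. None was called between days 14 and 28 by the main edgeR fit (all 7 libraries, with the filter on low counts), where 0.0622% of all genes were called. In that comparison 3 of the 9 had an unadjusted p under 0.05, as did 1570 of the 12858 genes tested, DESeq2 called 2 (Il18bp and Il1r2), and limma on log2 FPKM called 0. The median log2 fold change of the 9 was -0.19 between days 5 and 14, -0.09 between days 14 and 28 and -0.44 between days 5 and 28, beside 0.03, 0.01 and 0.03 for all genes tested. The 3 comparisons share libraries in pairs, so their values for a gene are not independent. Because the 9 genes were chosen with earlier results of these data known, their counts beside the shares of all genes are a description.

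**Figure D2:**
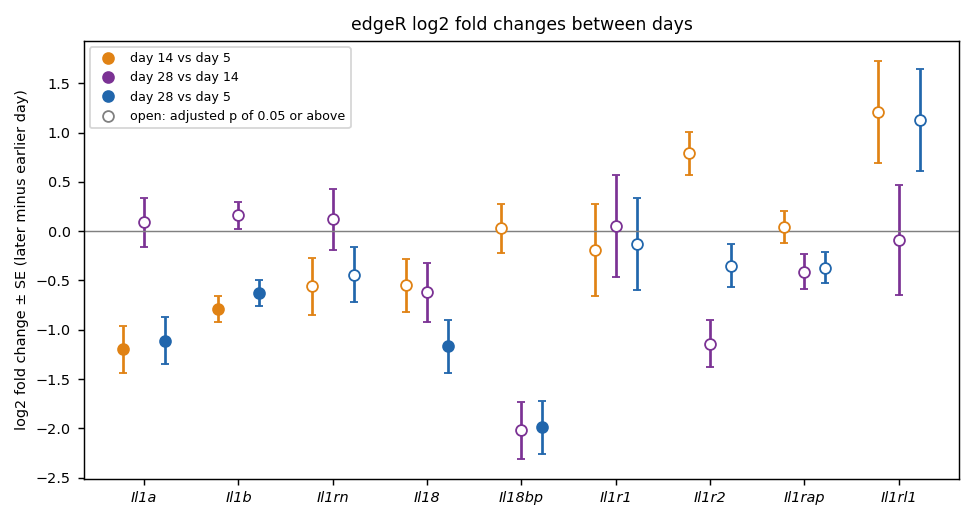
edgeR log2 fold change ± SE for each of the 9 genes in the 3 comparisons of days (filled points, adjusted p under 0.05). The filled points are Il1a and Il1b at day 14 against day 5, and Il1a, Il1b, Il18 and Il18bp at day 28 against day 5, all below 0.

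Il1a, the precursor cytokine that is active without cleavage, measured 245, 258 and 181 FPKM in the day 5 libraries. It measured 126 and 71.9 FPKM at day 14 and 98.2 and 111 FPKM at day 28. Every later library lay below every day 5 library, while days 14 and 28 overlapped. The mean fell from 228 ± 41.3 FPKM (SD, n = 3) to 98.9 ± 38.1 (SD, n = 2) and 105 ± 8.95 (SD, n = 2). The edgeR log2 fold change was -1.20 ± 0.24 (SE) from day 5 to day 14, a 2.29-fold fall with an adjusted p of 0.0310, and -1.11 ± 0.24 from day 5 to day 28, a 2.16-fold fall with an adjusted p of 0.0164. From day 14 to day 28 it was 0.09 (edgeR adjusted p = 0.918). With 1 library left out at a time, the log2 fold change stayed between -1.65 and -0.85 at day 14 and between -1.25 and -1.01 at day 28, but the calls did not all hold. The day 14 call held only without day 14 replicate 1, with edgeR adjusted p from 0.000751 to 0.0953, and it was also lost when days 5 and 14 were fitted alone (0.0559). The day 28 call held in 3 of 7 fits, with edgeR adjusted p from 0.000479 to 0.132, and was lost without day 28 replicate 1 or 2 or day 5 replicate 1 or 2.

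Il1b, the inflammasome-dependent cytokine, measured 1104, 1205 and 1225 FPKM at day 5. It measured 735 and 618 FPKM at day 14 and 783 and 728 FPKM at day 28. Again no later library reached the lowest day 5 library, and the day 14 and day 28 libraries overlapped. The spread within a day was small, with means of 1178 ± 64.7 (SD, n = 3), 677 ± 82.5 (SD, n = 2) and 755 ± 39.0 FPKM (SD, n = 2). By edgeR it fell by 0.79 ± 0.13 (SE) on the log2 scale to day 14, which is 1.73-fold (adjusted p = 0.0184), and by 0.63 ± 0.13 to day 28, which is 1.55-fold (adjusted p = 0.0129). The value at day 28 differed from that at day 14 by 0.16 in log2 (edgeR adjusted p = 0.668). The day 14 call was lost without any one of the 3 day 5 libraries (edgeR adjusted p = 0.0561, 0.0668 and 0.0721). The day 28 call was lost without day 28 replicate 1 or 2 or day 5 replicate 2 or 3 (0.0526 to 0.0674). With 1 library left out its log2 fold change stayed between -0.91 and -0.68 at day 14 and between -0.68 and -0.57 at day 28. Il1b remained an abundant transcript throughout.

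The sort markers Cd14 and Emr1 (F4/80) were called lower as well. Cd14, an LPS co-receptor used for the gate, measured 2635 to 3003 FPKM at day 5, 1837 and 1431 at day 14, and 1433 and 1799 at day 28. It was called lower at day 14 (edgeR log2 fold change -0.75, adjusted p = 0.0357) and at day 28 (-0.76, 0.0145), and Emr1 at day 28 (-1.01, 0.00650). The other 6 macrophage markers were not called in any comparison. The part of these markers, or of cells that differ in them, in the falls of Il1a and Il1b was not tested.

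At day 14, replicate 1 was above replicate 2 for all 9 genes, with the highest ratios of the FPKM values for Il1r1, Il1rl1 and Il1rn. Il1a and Il1b followed each other over the 7 libraries (Pearson r = 0.925 on log2(FPKM + 1), a description over libraries that share days). The genes most like Il1a in this measure, among 7549 genes with a mean of at least 5 FPKM, were Taok1, Ttpal and Zc3h11a (r = 0.992, 0.991 and 0.990). Btaf1 and Tnks2 were among those most like Il1b (0.991 and 0.989).

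Il18, the cytokine that induces interferon-γ in lymphocytes, was expressed at a far lower level than Il1b. It measured 19.4, 24.6 and 17.7 FPKM at day 5, 17.9 and 10.1 FPKM at day 14, and 10.2 and 7.81 FPKM at day 28. The day 28 libraries were below all day 5 libraries, and the day 14 libraries overlapped with both other days. The means were 20.6 ± 3.61 (SD, n = 3), 14.0 ± 5.58 (SD, n = 2) and 8.98 ± 1.66 FPKM (SD, n = 2). From day 5 to day 28 the edgeR log2 fold change was -1.17 ± 0.27 (SE), a 2.25-fold fall (adjusted p = 0.0223). The step to day 14 (-0.55, edgeR adjusted p = 0.246) and the later step (-0.62, 0.437) were not called. The day 28 call was lost without day 28 replicate 1 or 2 or day 5 replicate 1 or 2, with edgeR adjusted p of 0.0619 to 0.115. The most similar genes were Ascc3, Pmm2 and Tor1aip1 (r = 0.995, 0.993 and 0.992).

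Il1rn, which encodes the IL-1 receptor antagonist, was the second most abundant member. It measured 675, 518 and 506 FPKM at day 5, 530 and 238 FPKM at day 14, and 431 and 397 FPKM at day 28. Day 14 replicate 2 was the lowest of all, day 14 replicate 1 lay within the day 5 range, and both day 28 libraries were below all day 5 libraries. No comparison was called. The edgeR log2 fold change was -0.56 ± 0.29 (SE) to day 14 (adjusted p = 0.270) and -0.44 to day 28 (adjusted p = 0.324). The day 14 value was decided by which library was kept, at -1.24 without replicate 1 (edgeR adjusted p = 0.00224) and -0.09 without replicate 2 (adjusted p = 0.862). The day 28 comparison was called without either day 14 library (edgeR adjusted p = 0.0489 and 0.0480). Mob3c, Mdfic and Srsf5 were most like it (r = 0.992, 0.988 and 0.985).

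Il18bp, the soluble trap for IL-18, had the largest change of the 9 genes. It measured 23.2, 19.4 and 19.98 FPKM at day 5 and 28.2 and 14.4 FPKM at day 14, with the day 5 values between those of the day 14 libraries. At day 28 it measured 5.62 and 4.76 FPKM, below all 5 earlier libraries. The mean went from 20.9 ± 2.03 (SD, n = 3) and 21.3 ± 9.82 (SD, n = 2) to 5.19 ± 0.611 FPKM (SD, n = 2). From day 5 to day 28 the edgeR log2 fold change was -1.99 ± 0.27 (SE), a 3.96-fold fall (adjusted p = 0.00276), and it was called in all 7 fits with a library left out and in all 7 other settings. From day 14 to day 28 it was -2.02 ± 0.29, a 4.05-fold fall that missed the threshold in edgeR (adjusted p = 0.0514). That comparison was called without day 14 replicate 1 (-1.46, 0.0195) or replicate 2 (-2.42, 0.000180), by DESeq2 (1.17e-08) and by edgeR with no expression filter (1.47e-05), and its adjusted p ran up to 0.341 over the 14 alternatives. From day 5 to day 14 the value was 0.03 ± 0.25 (edgeR adjusted p = 0.955).

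Il18bp shares 80 exonic bases with Numa1, a mitotic spindle gene on the opposite strand, and the strand setting of the counting is not given. Numa1 measured 15.7 to 22.4 FPKM, with 17.1 and 22.1 FPKM at day 28, so it did not fall with Il18bp. The genes most like Il18bp were Pltp, a phospholipid transfer protein, Ly6e, an interferon-inducible surface protein, and Tspo, a mitochondrial transporter (r = 0.995, 0.992 and 0.991). Monocyte markers were called in both directions between days 5 and 28. Ly6c2 measured 107, 72.8 and 57.1 FPKM at day 5, 114 and 18.2 FPKM at day 14, and 12.2 and 8.31 FPKM at day 28 (edgeR log2 fold change -2.90 from day 5 to day 28, adjusted p = 0.0206). Ly6c1 (-2.70, 0.0286) was lower too, Ccr2 was higher (0.74, 0.0259), and Chi3l3 was not called. The monocyte list summed to 183 to 269 FPKM at day 5, 121 to 266 at day 14 and 127 to 176 at day 28. The part of monocyte-marked cells in the fall of Il18bp was not tested.

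None of the 4 receptor genes was called in any of the 3 comparisons by the main edgeR fit (all 7 libraries, with the filter on low counts). Il1r1, the signalling receptor, measured 2.39, 1.37 and 1.10 FPKM at day 5, 2.199 and 0.648 FPKM at day 14, and 1.34 and 1.61 FPKM at day 28. These values rested on 67 to 264 fragments, and all 3 days overlapped. The edgeR log2 fold changes were -0.19 to day 14 and -0.13 to day 28 (adjusted p = 0.846 and 0.875), with SEs wider than the changes themselves. Scpep1, Sphk1 and Ipo5 were most like it (r = 0.973, 0.972 and 0.967).

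Il1rap, the accessory chain shared by IL-1R1 and ST2, was the steadiest member up to day 14. It measured 7.23, 7.91 and 7.08 FPKM at day 5 and 7.64 and 7.37 FPKM at day 14. At day 28 it measured 6.83 and 4.59 FPKM, both below all earlier libraries. No comparison was called, with an edgeR log2 fold change of 0.04 ± 0.16 (SE) from day 5 to day 14 and -0.37 ± 0.16 by day 28 (edgeR adjusted p = 0.908 and 0.156). The day 28 value was -0.69 without day 28 replicate 1 (edgeR adjusted p = 0.0469) and -0.12 without replicate 2. Il15, Srd5a3 and Ppib were most like it (r = 0.946, 0.942 and 0.936).

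Il1r2, the decoy receptor, was the member whose day 14 libraries both lay above all others. It measured 11.99, 14.1 and 10.5 FPKM at day 5, 24.3 and 17.7 FPKM at day 14, and 11.3 and 7.54 FPKM at day 28. The 5 other libraries reached at most 14.1 FPKM, and days 5 and 28 overlapped. The means were 12.2 ± 1.795 (SD, n = 3), 21.0 ± 4.67 (SD, n = 2) and 9.39 ± 2.62 FPKM (SD, n = 2). By edgeR the log2 fold change was 0.79 ± 0.22 (SE) to day 14 (adjusted p = 0.0687) and -1.14 ± 0.24 from day 14 to day 28 (adjusted p = 0.107), neither of which passed the threshold. Both were called by DESeq2 (adjusted p = 0.0225 and 0.00251) and by edgeR with no expression filter (0.0116 and 0.00321). Over all 14 alternatives the adjusted p ran from 0.0116 to 0.195 for the first and from 0.00251 to 0.341 for the second. The value at day 28 differed from day 5 by -0.35 (edgeR adjusted p = 0.313).

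The genes most like Il1r2 were Hdc, which makes histamine, S100a9, a calcium-binding protein abundant in neutrophils and monocytes, and Fbxw17 (r = 0.956, 0.947 and 0.944). S100a9 measured 138, 161 and 159 FPKM at day 5, 334 and 295 FPKM at day 14, and 137 and 61.4 FPKM at day 28. Of the 10 genes of the neutrophil list, 9 were in the expression table, S100a9 among them. They summed to 338 to 362 FPKM at day 5, 586 to 600 at day 14 and 154 to 294 at day 28. S100a9 was the highest of the list in every library and S100a8 the next, so this sum is not separate from S100a9. Csf3r came after them, with 66.6 to 72.7 FPKM at day 5, 70.5 and 45.1 at day 14, and 30.2 and 33.95 at day 28. Within the list, S100a8, Ltf and Cxcr2 also had their highest values at day 14, and Retnlg had its highest mean there. In contrast, Mmp8 was called lower at day 14 (edgeR log2 fold change -1.60, adjusted p = 0.0184) and at day 28 (-2.58, 0.00101), and Csf3r at day 28 (-1.09, 0.00581). Camp and Ngp, granule genes that define neutrophil precursors, were at most 1.25 FPKM. Ngp reached that value in day 14 replicate 2, the only library with fragments of it (27). Cells with surface Ly6G had been gated out. The fibroblast list was also highest at day 14, at 80.2 and 222 FPKM against at most 72.0 in the 5 other libraries. All 6 of its genes had higher means at day 14 than at days 5 and 28, and 1 of them, Col1a2, was called from day 5 to day 14 (edgeR log2 fold change 1.86, adjusted p = 0.0350). The part of neutrophil-marked cells or of fibroblast RNA in the level of Il1r2 was not tested.

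Il1rl1, the IL-33 receptor gene, was counted from 26 to 176 fragments per library. It measured 1.14, 0.708 and 0.264 FPKM at day 5, 2.16 and 0.893 FPKM at day 14, and 1.004 and 1.82 FPKM at day 28. All 3 days overlapped. Its edgeR log2 fold changes of 1.21 to day 14 and 1.13 to day 28 were the highest of the 9 genes and were not called (adjusted p = 0.194 and 0.170). FPKM for this gene does not follow the fragment count exactly, since the FPKM divided by the counts scaled to library size ranged from 0.215 to 0.261 between libraries, against ratios of the highest to the lowest of 1.01 to 1.04 for the other members. Plxna1, Gdf15 and Gigyf1 were most like it (r = 0.974, 0.959 and 0.956).

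Separation between days alone was common in these data. The libraries of days 5 and 14 did not overlap for 43.2% of all genes tested, those of days 14 and 28 for 39.0% and those of days 5 and 28 for 51.5%. Among the members this held for Il1a, Il1b and Il1r2 between days 5 and 14, for Il18bp, Il1r2 and Il1rap between days 14 and 28, and for Il1a, Il1b, Il1rn, Il18, Il18bp and Il1rap between days 5 and 28.

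Ratios within a library were taken for Il1b and Il18 with their inhibitors, for the pair of IL-1 cytokines and for the decoy and signalling receptors, on the FPKM scale and with no test. Il1rn relative to Il1b was 0.611, 0.430 and 0.413 at day 5, 0.721 and 0.385 at day 14 and 0.550 and 0.546 at day 28, so the days overlapped and Il1b exceeded Il1rn in all 7 libraries. Il1a relative to Il1b was 0.221, 0.214 and 0.148 at day 5 and 0.116 to 0.171 later, also with overlap. Il18bp relative to Il18 was 1.20, 0.790 and 1.13 at day 5, 1.57 and 1.43 at day 14, and 0.554 and 0.609 at day 28. This last ratio did not overlap between any 2 days, and the transcript of the trap exceeded that of its cytokine in both day 14 libraries but in neither day 28 library. Il1r2 relative to Il1r1 was 5.02, 10.3 and 9.62 at day 5, 11.03 and 27.3 at day 14, and 8.40 and 4.70 at day 28. The decoy transcript exceeded the signalling receptor transcript in all 7 libraries, and the widest ratio came from day 14 replicate 2, where Il1r1 was at its lowest.

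**Figure D3:**
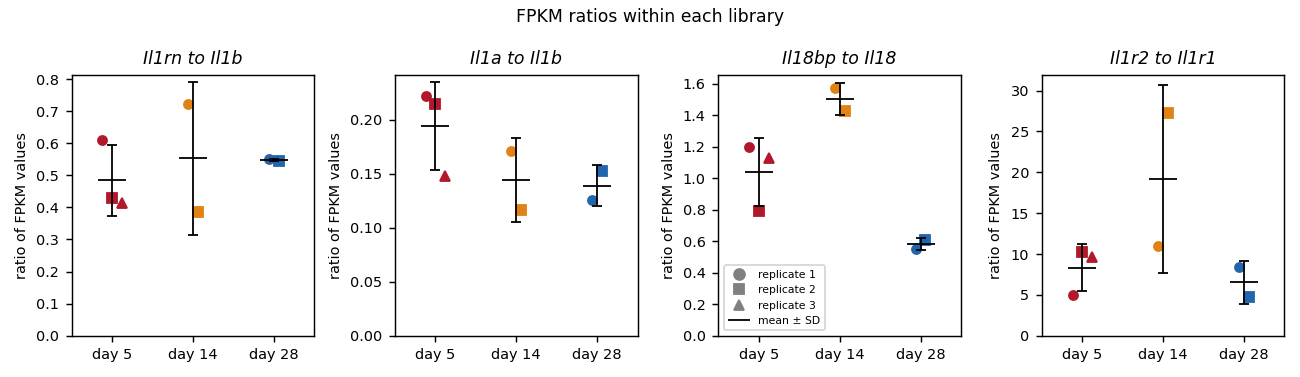
Ratio of FPKM values within each library for 4 pairs of members, by day, with the mean ± SD as bars (n = 3, 2 and 2). Il18bp to Il18 separates the days, at 1.43 and 1.57 on day 14 against 0.554 and 0.609 on day 28, while Il1rn to Il1b overlaps.

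Of 12 other family genes, 5 passed the filter. Il1f9, which encodes IL-36γ, measured 11.5, 10.4 and 11.2 FPKM at day 5, 23.2 and 16.3 FPKM at day 14, and a mean of 13.3 ± 0.405 FPKM (SD, n = 2) at day 28. It was called higher at day 14 than at day 5 (edgeR log2 fold change 0.84 ± 0.16 SE, adjusted p = 0.0264), the direction seen for Il1r2. The IL-36 receptor gene Il1rl2 measured 1.42 to 2.38 FPKM, Il33 0.312 to 2.37 FPKM and Sigirr, an inhibitory receptor, 0.434 to 1.04 FPKM, and none of these was called. The chains of the IL-18 receptor differed: Il18rap measured 1.46, 1.21 and 1.68 FPKM at day 5, 3.83 and 2.03 FPKM at day 14, and 1.94 and 1.46 FPKM at day 28 (edgeR log2 fold change 1.01 to day 14, adjusted p = 0.0960), whereas Il18r1, the ligand-binding chain, had 0 to 17 fragments and was not tested. Il1f6 had at most 7 fragments, and Il1f5, Il1f8, Il1f10, Il1rapl1 and Il1rapl2 had 0 in all 7 libraries.

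**Figure D4:**
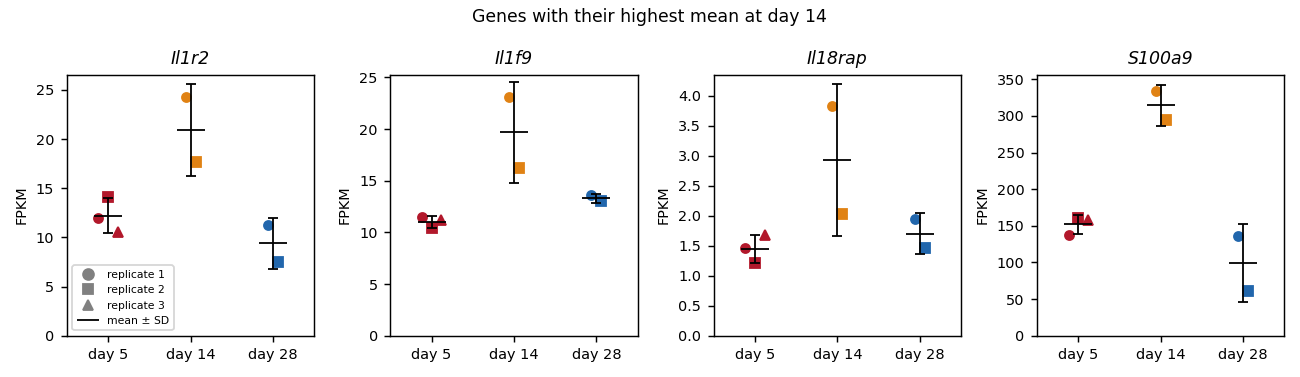
FPKM by library and day for Il1r2, the family genes Il1f9 and Il18rap, and S100a9 from the neutrophil list (bars, mean ± SD, n = 3, 2 and 2). The 4 genes were picked for their highest mean at day 14, so their shared shape follows from the choice. In each, both day 14 libraries lie above all 5 others, and of the 4 genes only Il1f9 was called between days 5 and 14. Mmp8, also of the neutrophil list, was called lower at day 14.

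The signalling genes downstream of the receptors were all 16 expressed and tested. Between days 5 and 14, 2 were called, both lower: Myd88, the adaptor (edgeR log2 fold change -0.56, adjusted p = 0.0407), and Irak3, an inhibitor of IRAK signalling (-0.66, 0.0383). Myd88 measured 87.8 to 99.0 FPKM at day 5, 69.4 and 55.9 at day 14, and 45.01 and 44.0 at day 28. At day 28 both were lower again than at day 5 (Myd88 -1.05, 0.00183, and Irak3 -1.03, 0.00317), and Peli2, an E3 ligase of the pathway, was higher (1.04, 0.0115). The other 13 genes were not called in any comparison. Against day 5, 4.78% of all genes tested were called at day 14 and 15.2% at day 28. The median log2 fold change of the list was -0.25 at day 14 and at day 28.

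The 10 genes of cytokine maturation and release were also all tested. Nlrp3, the inflammasome sensor that feeds IL-1β and IL-18 cleavage, was lower at day 14 (edgeR log2 fold change -0.82, adjusted p = 0.0447) and at day 28 (-0.73, 0.0323) than at day 5. At day 28 Casp4, the caspase that senses intracellular lipopolysaccharide, was also lower (-1.37, 0.0378), as was Casp8 (-0.51, 0.0231), and Aim2, a DNA sensor, was higher (1.03, 0.00904). Casp1, which cleaves both cytokines, measured 35.3 to 48.5 FPKM and was not called (-0.26 at day 14 and -0.19 at day 28). Of 10 genes that IL-1 is known to induce, Il6 (-1.71, 0.0388) and Cxcl1 (-0.75, 0.0366) were lower at day 14 than at day 5, and 0 were called at day 28, where 3 had an unadjusted p under 0.05, as did 4046 of all 12858 genes tested. Such genes also respond to other stimuli. Beside the calls in these 2 lists stand 4.78% of all genes tested called at day 14 and 15.2% at day 28, both against day 5.

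**Figure D5:**
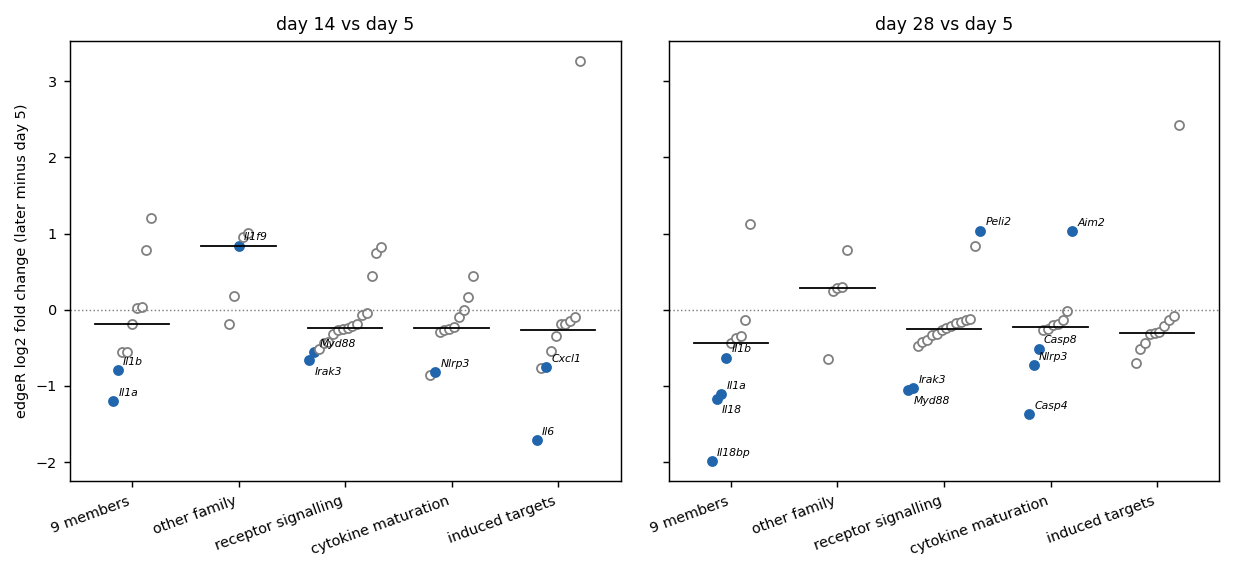
edgeR log2 fold change of each tested gene in 5 lists at day 14 (left) and day 28 (right) against day 5, with called genes filled and named and the list median as a line. Most points lie just below 0. The open point at 3.27 among the induced genes at day 14 is Csf2, chosen here after its values were seen, with 3, 1 and 4 fragments in the day 5 libraries and 28 and 19 at day 14, so its fold rests on a group near the floor of 3 fragments and it was not called.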

How the data were processed

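RNA from sorted macrophages was polyA-selected, made into single-end libraries (NEBNext Ultra) and sequenced on a NextSeq500. The submitters' processing notes name cutadapt 1.8, TopHat2 2.0.13 and Cuffdiff 2.2.1, with build mm10. The authors deposited estimated counts of fragments per gene and library, as made by Cuffdiff, with 0.95% of values not whole. FPKM values of the same genes, made with Cuffdiff's scaling between libraries, were deposited beside them. The annotation release and the handling of strand and multi-mapped reads are not given in the sources used here.

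Estimated counts were rounded, filtered with filterByExpr, scaled by TMM and tested with edgeR 4.0.16 (R 4.3.3) on all 7 libraries with day as the only term. Depth limits Il1r1 and Il1rl1 most. The code was tested on simulated data. FPKM gave levels and ratios. No per-library column was left unmapped. Alternatives were DESeq2 1.42.0, RLE size factors, no expression filter, limma 3.58.1 on log2(FPKM + 1) or log2(FPKM + 0.1), only the 2 time points compared, the replicate number as a block, an adjusted p under 0.01, and each library left out.

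The named genes were all 9 members, called genes of the pathway and marker lists, several fixed receptor and signalling genes, and the 3 genes with the highest Pearson correlation to each member among tested genes with a mean of at least 5 FPKM. Members and lists were chosen with earlier results of these data known. Some genes that this rule names are not reported here.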

Additional observations from a re-analysis of the deposited data

How the results depend on the processing

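Of 378 fold changes of the 9 genes under alternatives, 321 kept their direction and side of the threshold, 15 became called, 26 lost a call and 16 changed sign. The call of Il18bp from day 5 to day 28 held under every alternative run. The cause of the changes was not tested.

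The number of the 9 genes called between days 5 and 14 (2) was 1 with only those days, 0 with the replicate block, 0 at an adjusted p under 0.01, and 0 to 4 with 1 library left out. Between days 14 and 28 (0) it was 2 by DESeq2, 2 with no expression filter, and 0 to 2 with 1 library left out. Between days 5 and 28 (4) it was 2 with the replicate block, 1 at an adjusted p under 0.01, and 1 to 5 with 1 library left out. With the replicate block the lost calls were Il1a (0.0829) and Il1b (0.0955) at day 14, and Il18 (0.0543) and Il1b (0.0660) at day 28, all edgeR adjusted p. Same-numbered libraries correlated at -0.054 to 0.175 in their deviations from the day mean over 7613 genes. At days 14 and 28 the 2 deviations mirror each other, so these values hold little independent information. Whether same-numbered libraries share a preparation was not tested.

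Over all genes, the 614 called between days 5 and 14 became 1366 by DESeq2, 1429 with no expression filter, 252 and 277 by limma with pseudocounts of 1 and 0.1, 325 with only those days, 6 with the replicate block, 24 at an adjusted p under 0.01, and 52 to 1744 with 1 library left out. The 8 called between days 14 and 28 became 332 by DESeq2, 390 with no expression filter, 0 by limma with either pseudocount, 0 with only those days, 0 with the replicate block, 0 at an adjusted p under 0.01, and 0 to 652 with 1 library left out. The 1960 called between days 5 and 28 became 735 with the replicate block, 597 at an adjusted p under 0.01, and 457 to 2782 with 1 library left out.

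The changes of sign were all in uncalled comparisons. From day 5 to day 14 Il18bp gave -0.04 and -0.05 by limma with pseudocounts of 1 and 0.1, -0.05 with the replicate block, and -0.53 to 0.44 with 1 library left out, and Il1r1 gave -1.29 to 0.45 with 1 left out. From day 14 to day 28 the range with 1 library left out was -0.26 to 0.54 for Il1a, -0.35 to 0.80 for Il1rn, -0.58 to 1.16 for Il1r1 and -0.60 to 0.68 for Il1rl1, which gave 0.02 with the replicate block. From day 5 to day 28 it was -0.35 to 0.26 for Il1r1. The ends of these ranges came from leaving out a day 14 library, except in the last, whose positive value came without day 5 replicate 1. A day left with 1 library was assumed to vary like the other days.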
